A study of Mus musculus with 6 samples.

Results

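The genes described here are 33 mouse genes of cholesterol synthesis, fatty acid synthesis, sterol transfer and lipid droplet coats. They were taken from a list by gene symbol, as probes whose RefSeq accession carries that symbol. Of the 33, 32 had a probe on the array, 51 probes in all, and only Idi1, the isomerase of isopentenyl pyrophosphate, was unmatched. The 32 are part of 13381 genes tested, and all 32 were well above background on all 6 arrays, so the filter on dim probes removed none of them.

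P19 cells are a mouse embryonal carcinoma line that gives neurons when it is aggregated in retinoic acid. A line expressing AICD, the intracellular fragment that gamma-secretase cuts from the amyloid precursor protein, was set beside a control line with pCDNA, the vector without insert. Each of the lines was taken undifferentiated, aggregated (in suspension aggregates for 4 days, with 5e-07 M of all-trans retinoic acid) and differentiated (2 days after replating of the aggregates), and total RNA was hybridised to 1-colour Agilent arrays, 1 array per line and state. The sources used here do not give the promoter that drives AICD or whether each line is 1 clone. The comparisons ask which lipid genes differ between the lines and how the genes move as the cells differentiate.

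Cholesterol is built from acetyl-CoA through mevalonate, farnesyl pyrophosphate and squalene, then through a series of sterols that ends with the reductase Dhcr7. The transcription factor SREBP2, made by Srebf2, switches on most of these enzymes when membrane sterol is low, and INSIG proteins hold it back in the endoplasmic reticulum when sterol is plentiful. SREBP1, made by Srebf1, acts more on fatty acid synthesis and desaturation. Neurons and glia make most of their own cholesterol, and perilipins coat the droplets in which cells keep surplus sterol esters and triglycerides.

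Promoter sequence was at hand for 26 of the 33 genes, from RefSeq on the GRCm38.p6 build, as 300 bases from 250 before to 50 after the start of the gene. Each window was searched on both strands for CACNCCAC, which resembles the sterol regulatory element, for CCAAT, the box bound by the SREBP partner NF-Y, and for the E-box CACGTG. The 5 windows below belong to genes on which the results turn, 3 that rose with differentiation and 2 that differed between the lines. Capitals mark CACNCCAC and CCAAT, and a match on the other strand is printed as its reverse complement, such as ATTGG.
Hmgcs1, chr13:119690101-119690400, plus strand, a rising mevalonate enzyme: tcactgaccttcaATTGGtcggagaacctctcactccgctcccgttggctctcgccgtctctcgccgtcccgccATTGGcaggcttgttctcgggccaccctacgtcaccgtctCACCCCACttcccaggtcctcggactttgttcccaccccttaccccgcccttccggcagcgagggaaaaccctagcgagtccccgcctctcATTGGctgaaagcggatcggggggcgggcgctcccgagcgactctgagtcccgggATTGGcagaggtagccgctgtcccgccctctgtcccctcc
Tm7sf2, chr19:6067801-6068100, minus strand, a rising late sterol enzyme: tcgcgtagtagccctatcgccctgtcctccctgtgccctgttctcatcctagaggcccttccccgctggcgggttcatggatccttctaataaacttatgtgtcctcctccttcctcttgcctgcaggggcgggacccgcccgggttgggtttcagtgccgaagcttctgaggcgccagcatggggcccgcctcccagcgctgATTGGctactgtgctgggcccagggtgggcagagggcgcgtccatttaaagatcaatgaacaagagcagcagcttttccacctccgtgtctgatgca
Insig1, chr5:28071162-28071461, plus strand, a rising sterol sensor: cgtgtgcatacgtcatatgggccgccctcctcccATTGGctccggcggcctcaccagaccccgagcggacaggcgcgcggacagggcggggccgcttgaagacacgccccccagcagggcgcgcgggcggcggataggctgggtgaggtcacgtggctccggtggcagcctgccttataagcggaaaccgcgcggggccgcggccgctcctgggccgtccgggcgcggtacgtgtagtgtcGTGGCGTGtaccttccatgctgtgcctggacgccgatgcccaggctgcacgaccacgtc
Plin2, chr4:86670010-86670309, minus strand, higher in the AICD line: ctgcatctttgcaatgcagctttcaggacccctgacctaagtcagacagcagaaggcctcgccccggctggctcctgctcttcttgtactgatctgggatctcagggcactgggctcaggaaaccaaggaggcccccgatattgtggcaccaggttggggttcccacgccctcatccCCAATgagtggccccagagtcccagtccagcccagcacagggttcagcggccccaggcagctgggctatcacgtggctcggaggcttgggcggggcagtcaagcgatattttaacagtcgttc
Gramd1a, chr7:31151122-31151421, minus strand, higher in the AICD line: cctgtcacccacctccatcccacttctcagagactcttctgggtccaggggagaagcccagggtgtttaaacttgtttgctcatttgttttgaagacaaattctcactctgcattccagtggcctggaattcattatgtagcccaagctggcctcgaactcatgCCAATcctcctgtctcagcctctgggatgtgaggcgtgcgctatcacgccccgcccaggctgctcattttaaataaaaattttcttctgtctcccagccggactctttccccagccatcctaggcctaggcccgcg

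CCAAT was found in 22 of the 26 windows, against 43.3% of 10689 tested genes with a window. Acaca, Acat2, Elovl6 and Fads2 lacked it, and the Hmgcs1 window held 4 copies. CACNCCAC was found in 3 windows, those of Acat2, Hmgcs1 and Insig1, against 7.58% of tested genes. The E-box was found in 5 windows, those of Dhcr7, Hsd17b7, Insig1, Plin2 and Sc5d, against 11.2%. These are counts of letters in a short window and no measure of binding.

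Spots well above background made up 62.0% to 65.9% of each array, no spot was saturated, and the median standard deviation of repeated spots (log2) lay between 0.0638 and 0.0715. Levels below are normalized log2 signals, log2 of the scanner's processed signal minus that array's 75th percentile, so 0 is the 75th percentile and 1 unit is a 2-fold difference. The lines and states were tested with limma in 1 model of state plus line, 2-sided, with Benjamini-Hochberg adjustment over the 13381 genes, and a gene is said to have risen, fallen or differed only at an adjusted p under 0.05. With 1 array per line and state the model takes its error from how far the line difference varies from state to state. The labels name no separate cultures, so the p-values measure only the spread between these arrays, which may be technical. Both undifferentiated arrays lay on 1 slide and the other 4 on another, so steps away from the undifferentiated state cannot be told apart from the slide, whereas each line lies on both slides. The AICD fragment itself could not be checked, since no source used here places the App probe relative to it. App levels on the vector and AICD arrays were -0.46 and -0.21 undifferentiated, 1.42 and 0.93 aggregated, and 2.86 and 2.03 differentiated.

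Markers of the cell types were read on the same scale, with the summed relative signal of a list being the sum of its genes' linear signals over the array's 75th percentile. The 6 tested pluripotency genes summed to 114 (vector) and 120 (AICD) undifferentiated, 0.743 and 15.3 aggregated, and 1.26 and 14.3 differentiated. Of the 6, 4 fell from the undifferentiated to the differentiated state, where 41.3% of all tested genes did. Of 8 neuronal genes, 7 rose over the same course (20.1% of all tested genes), with a median difference of 2.92 over the 8. These 8 summed to 14.0 (vector) and 15.7 (AICD) undifferentiated, 40.4 and 65.2 aggregated, and 136 and 109 differentiated. In limma 0 of the 8 differed between the lines, where 0.209% of all tested genes were called higher and 0.142% lower. The 7 mesenchyme genes summed to 2.10 and 1.78 undifferentiated, 6.33 and 1.21 aggregated, and 30.3 and 0.552 differentiated. Single markers stood apart on the 2 undifferentiated arrays too, without a test. Of the mesenchyme genes, the AICD minus vector difference was -2.94 for Thy1, -1.25 for Col1a1 and 2.03 for Col3a1 (log2). Among the pluripotency genes it was -1.33 for Utf1, -0.96 for Nr0b1 and 0.95 for Tdgf1, and Pou5f1 had levels of 6.37 (vector) and 6.48 (AICD).

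Plin2 and Gramd1a were the members that differed between the lines. Plin2, the perilipin that coats droplets in most cell types, had levels of -2.08 undifferentiated, -2.73 aggregated and -3.12 differentiated on the vector arrays. On the AICD arrays Plin2 had levels of 3.37, 2.55 and 1.76. Every AICD array lay above every vector array, and within each line the level was lower at each later state. The AICD array was 43.7-fold above the vector array undifferentiated, 38.9-fold aggregated and 29.5-fold differentiated. The fitted difference for Plin2 was 5.21 ± 0.17 (log2, AICD minus vector, ± limma standard error) with a 95% interval of 4.75 to 5.66 and a limma adjusted p of 0.0266.

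Gramd1a, a carrier that takes cholesterol from the plasma membrane to the endoplasmic reticulum, had levels of -2.25, -2.04 and -0.55 on the vector arrays in the undifferentiated, aggregated and differentiated states. On the AICD arrays the same probe had 2.02, 3.19 and 3.97. Here too the lines did not overlap, and the level was higher at each later state in both lines, the reverse of the order for Plin2. The AICD array was 19.3-fold, 37.4-fold and 23.0-fold above the vector array in the 3 states. The fitted line difference was 4.67 ± 0.23 (log2; 95% interval 4.03 to 5.31; limma adjusted p = 0.0295).

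These 2 of 32 members compare with 0.209% of all tested genes called higher in the AICD line and 0.142% called lower, and no member was called lower. Both members had been described from these data before, so their place on the list is not independent of the result. On the 4 arrays of the second slide alone the differences were 5.08 for Plin2 (adjusted p = 0.0365) and 4.87 for Gramd1a (0.0395). Both calls ended, at unchanged direction, without either aggregated array (adjusted p = 0.153) or either differentiated array (0.197 for Plin2 and 0.222 for Gramd1a), and when dim probes were kept (0.068 and 0.0708), and that of Gramd1a ended without the state term (0.151).

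**Figure D1:**
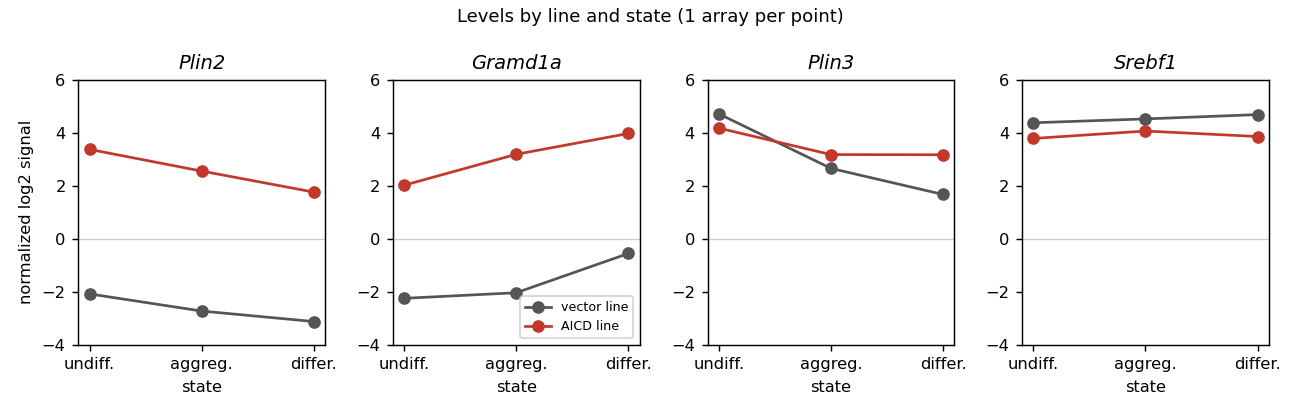
Normalized log2 signal (vertical axis) by state (horizontal axis) for Plin2, Gramd1a, Plin3 and Srebf1, 1 array per point, vector line in grey and AICD line in red, with no error bars because no line and state was repeated. The lines stayed apart by 4.88 to 5.45 log2 units for Plin2 and by 4.27 to 5.22 for Gramd1a, while those of Plin3 crossed.

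Marker genes of other droplet-bearing cell types were measured beside Plin2. Of 9 adipocyte genes 7 were tested, and 0 differed between the lines in limma (all genes: 0.209% higher, 0.142% lower). Their summed relative signal was 0.901 (vector) and 1.37 (AICD) undifferentiated, 0.404 and 0.397 aggregated, and 0.328 and 0.350 differentiated. Adipoq, the fat cell hormone adiponectin, had levels of -6.36 to -5.70 and Plin1, the perilipin of fat cells, of -5.85 to -5.24, where the dimmest probe called well above background on an array lay between -6.01 and -5.74. Well above background on all 6 arrays were Pparg (-3.17 to -1.68), Cebpa (-4.17 to -2.11), Plin4 (-4.52 to -2.68) and Cidec (-5.35 to -4.15). Fabp4, the fatty acid binding protein of fat cells and some other cells, had levels of -2.75 (vector) and -0.69 (AICD) undifferentiated, a difference of 2.06 in the same direction as Plin2. It was not well above background on either aggregated array, and its differentiated levels were -5.41 and -4.77 (fitted line difference 0.98; limma adjusted p = 0.44). The 3 tested macrophage genes of 8 summed to between 0.115 and 0.400 on every array, the 4 tested steroidogenic genes of 5 to between 0.930 and 3.63, and the 4 tested endoderm and liver genes of 8 to between 0.245 and 0.513, each with 0 line calls. The 4 tested glial genes of 8 summed to between 6.09 and 11.3, again with 0 line calls. The 7 mesenchyme genes had 0 line calls too, at a median fitted line difference of -3.56 (log2), so 0 calls do not show equal levels. Markers of the pluripotent and mesenchyme lists also stood apart between the arrays of the lines in every state, as given above. The neuronal sums given there were unequal between the lines too. The part of any of these cells in the Plin2 and Gramd1a differences was not tested.

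The other 30 members lay close together in the lines. Their line differences on single arrays ran from -0.83 (Srebf1, differentiated) to 1.5 (Plin3, differentiated), and after Plin3 the highest was 0.71 (Acat2, aggregated). At least 2-fold higher on the AICD array were 2 of 32 members undifferentiated (4.21% of all genes well above background on both arrays), 2 aggregated (4.21%) and 3 differentiated (4.62%), Plin3 being the third. No member was 2-fold lower, where 4.11%, 3.12% and 3.96% of all genes were. Comparisons of single arrays have no test. The median size of the fitted line difference was 0.14 over the 30 and 0.17 over all genes. At an unadjusted limma p under 0.05, 2 members were higher (Plin2 and Gramd1a; 6.05% of all genes) and 2 lower (Fads2 and Srebf1; 6.46%), each count being 6.25% of 32 and so near the background.

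Small differences of 1 sign in all 3 states were negative for 9 of the 30 and positive for 2 (Acat2 and Sqle). The 9 were Hmgcs1, Mvk, Fdft1, Tm7sf2, Srebf1, Scd2, Fads1, Fads2 and Stard4. Of all genes 35.8% kept 1 sign, either way, and the 9 and 2 together lie near that share of the 30. Shares of all genes for each sign alone were not counted. A second Fdft1 probe, well above background on 4 arrays, had a fitted line difference of 0.27 where the first had -0.33. Srebf1, the gene of SREBP1, had levels of 4.38, 4.52 and 4.68 on the vector arrays and 3.78, 4.07 and 3.86 on the AICD arrays in the order undifferentiated, aggregated, differentiated. Its highest AICD level lay below its lowest vector level. The fitted difference for Srebf1 was -0.63 ± 0.14 with a 95% interval of -1.01 to -0.24, and it did not pass (limma adjusted p = 0.222; unadjusted p = 0.0106). Fads2, the delta-6 desaturase of polyunsaturated fatty acids, had a line difference of -0.44 ± 0.12 (limma adjusted p = 0.287).

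**Figure D2:**
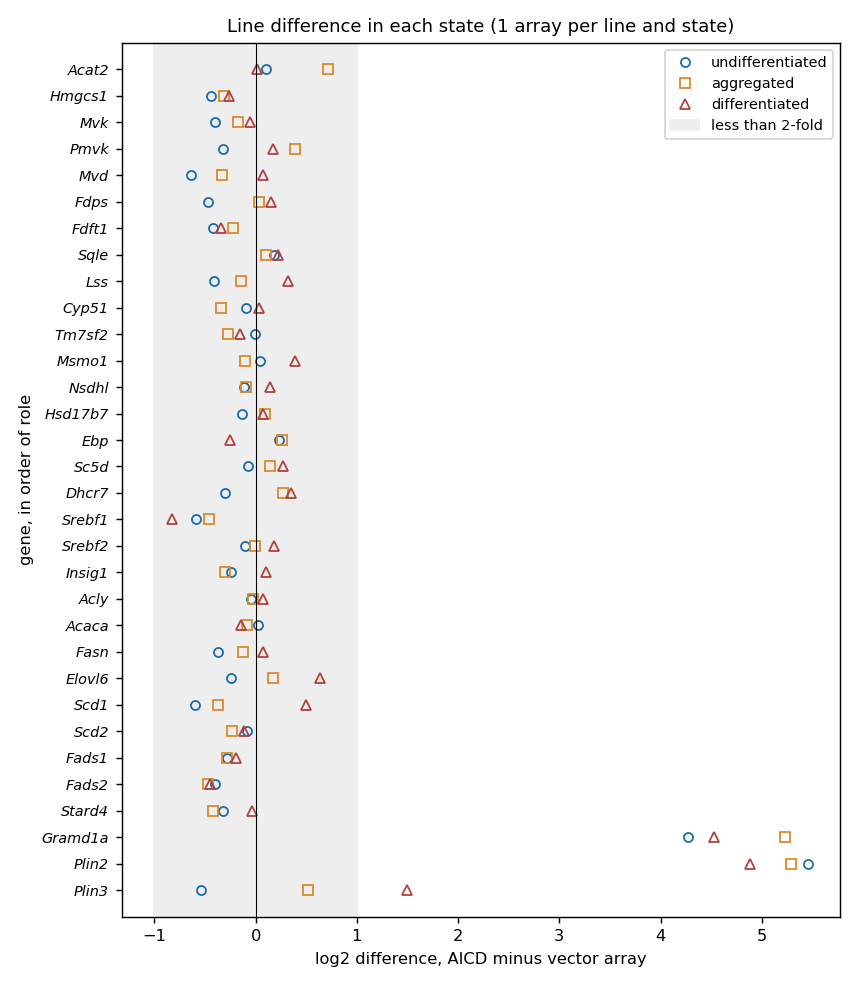
Log2 difference between the AICD and the vector array (horizontal axis) for each member (vertical axis, in order of role), with 1 symbol per state and a grey band for less than 2-fold. All symbols of Plin2 and Gramd1a lie at 4.27 or more, and outside the band lies otherwise only the differentiated symbol of Plin3 at 1.5.

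Plin3, the perilipin that moves from the cytosol onto young droplets, was the member whose line difference changed sign by the widest margin. Its vector levels were 4.71, 2.66 and 1.67 and its AICD levels 4.18, 3.18 and 3.17. The AICD array was 0.54 lower undifferentiated, 0.52 higher aggregated and 1.5 higher differentiated (log2). The level in the vector line was thus lower at each later state, whereas in the AICD line the aggregated and differentiated levels differed by 0.01. The fitted line difference of 0.49 ± 0.43 did not pass (limma adjusted p = 0.716), and it came to -0.0098 without either differentiated array and 1.01 without either undifferentiated array.

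Most enzymes of sterol synthesis rose over the whole course, though not all were higher at each later state. From the undifferentiated to the differentiated state 22 of 32 members rose, where 20.1% of all tested genes did, and 2 fell, where 41.3% of all genes did. The median fitted difference over the 32 was 0.98 (log2), against -0.44 over all genes. The 17 sterol synthesis enzymes had a median of 1.16, all 17 differences were positive, and 14 passed; Pmvk, Mvd and Ebp did not. Pluripotency genes fell and neuronal genes rose over the same course, as given above, and their part in the result was not tested. In such bulk RNA, fewer cells of a type and less RNA per cell cannot be told apart.

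The course also runs between slides, as stated above. The count of 24 called members was 6 without the vector differentiated array (with 879 genes called in all, against 8215) and 14 without the AICD differentiated array (5676 in all). Hmgcs1, Fdft1, Tm7sf2, Msmo1, Insig1 and Fads2 were called in all 14 settings. The count lay between 17 and 27 in the other settings tried, and the differences of all 17 enzymes were positive in every setting except that of Pmvk in 1. With quantile normalization the median of all genes was -0.24 and that of the 17 enzymes 1.42.

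**Figure D3:**
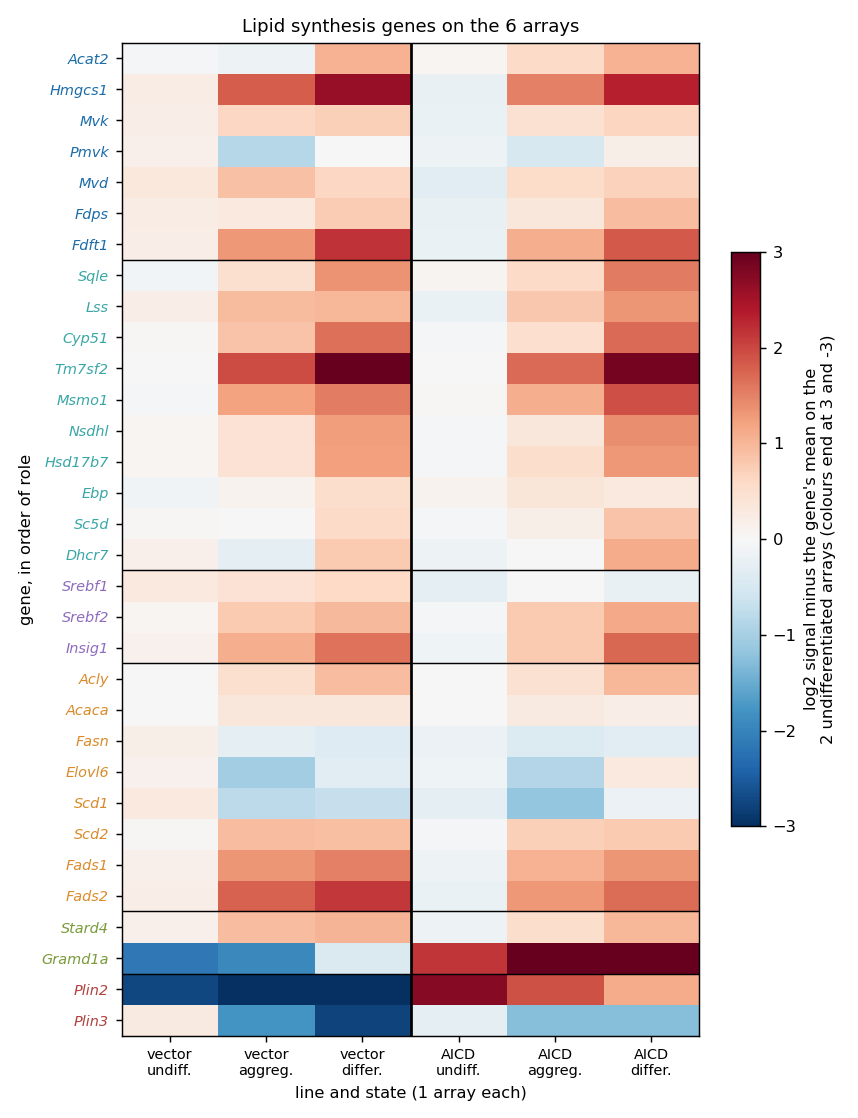
Normalized log2 signal of each member (rows, grouped by role, label colours as in the other plots) on each of the 6 arrays (columns), minus the gene's mean on the 2 undifferentiated arrays, with colours ending at 3 and -3. Most rows of the sterol enzymes darken to red from undifferentiated to differentiated in both lines, whereas Gramd1a and Plin2 split by line.

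**Figure D4:**
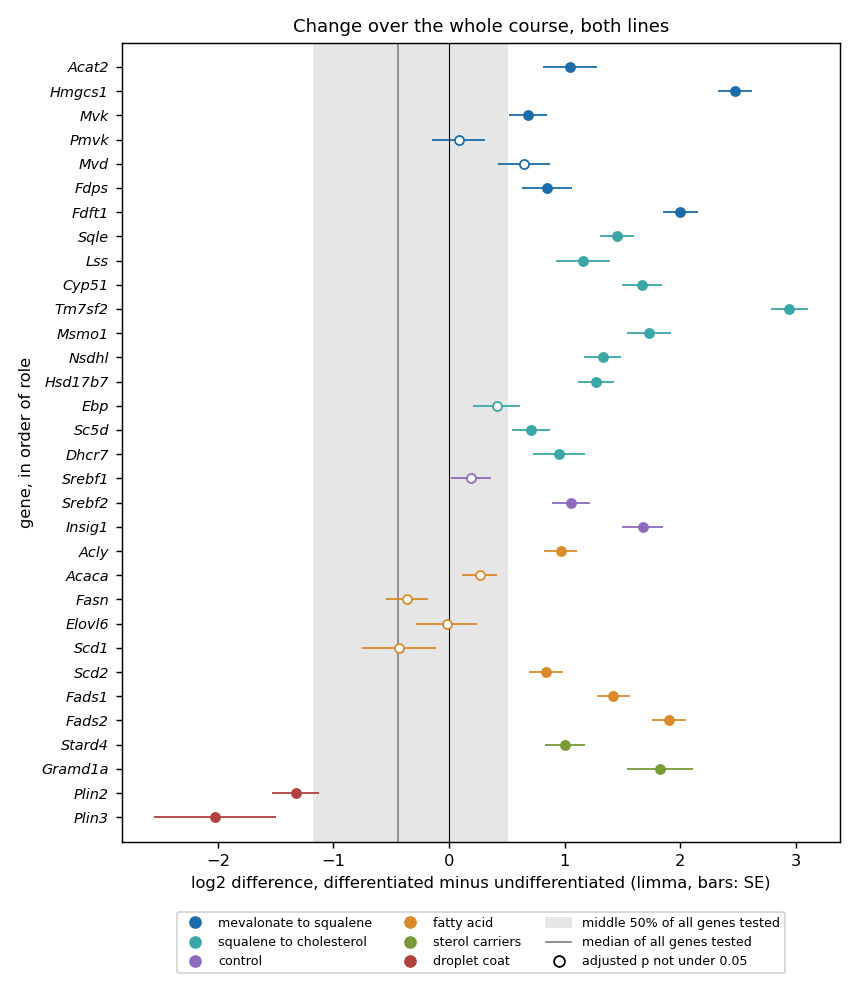
Fitted log2 difference, differentiated minus undifferentiated (horizontal axis, limma, bars are standard errors), for each member (vertical axis, in order of role), filled where the adjusted p was under 0.05. The grey band holds the middle 50% of all genes tested and the grey line their median of -0.44, and the values run from -2.02 (Plin3) to 2.95 (Tm7sf2).

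The first arm of the pathway runs from acetyl-CoA to squalene. Of its 7 tested enzymes 5 rose over the course, where 20.1% of all genes did. Hmgcs1, which makes HMG-CoA, had levels of 4.09 (vector) and 3.65 (AICD) undifferentiated, 5.69 and 5.38 aggregated, and 6.48 and 6.21 differentiated. The states did not overlap. Its fitted difference was 1.66 ± 0.15 on aggregation (limma adjusted p = 0.0117) and 2.47 ± 0.15 over the course (0.0049), and a second probe gave 1.86 and 2.44. Fdft1, the squalene synthase, had 1.90 and 1.48, then 3.0 and 2.78, then 3.86 and 3.52, again with no overlap of states. Its differences were 1.20 ± 0.15 on aggregation (limma adjusted p = 0.0145) and 2.00 ± 0.15 over the course (0.0061).

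The remaining enzymes of this arm moved less. Acat2, which joins acetyl units, rose over the course by 1.04 ± 0.24 (limma adjusted p = 0.0232), the farnesyl pyrophosphate synthase Fdps by 0.85 ± 0.22 (0.0319) and the mevalonate kinase Mvk by 0.68 ± 0.17 (0.0281). These calls ended only in settings with 1 array left out: for Acat2 without either undifferentiated or either differentiated array, for Fdps without any array but the vector undifferentiated, and for Mvk without any of the 6. Mvd, which decarboxylates mevalonate pyrophosphate, had levels of 1.80 and 1.16 undifferentiated, 2.36 and 2.02 aggregated, and 2.09 and 2.17 differentiated. Mvd had its highest vector level in the aggregated state, and its difference over the course of 0.65 ± 0.23 did not pass (limma adjusted p = 0.0697). Pmvk, the phosphomevalonate kinase, had a difference of 0.08 ± 0.23, with the aggregated state lowest in both lines.

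Between squalene and cholesterol 9 of 10 enzymes rose over the course, where 20.1% of all genes did. Tm7sf2, a sterol reductase of the inner nuclear membrane and endoplasmic reticulum, had levels of 1.58 in both lines undifferentiated, 3.55 (vector) and 3.27 (AICD) aggregated, and 4.61 and 4.45 differentiated. Its course difference of 2.95 ± 0.16 (limma adjusted p = 0.0049), 7.70-fold, had the highest value of the 32, and 1.83 ± 0.16 of it was present on aggregation (0.0116). Cyp51, the lanosterol demethylase, had 1.40 and 1.31, then 2.21 and 1.87, then 3.01 and 3.05. Its difference over the course was 1.67 ± 0.17 (limma adjusted p = 0.0074), and 2 further probes gave 1.80 and 1.73. The levels of Tm7sf2 and of Cyp51 were higher at each later state, with no overlap between states.

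Dhcr7, the last enzyme of the series, followed another course. Its levels were 3.71 and 3.41 undifferentiated, 3.27 and 3.54 aggregated, and 4.34 and 4.68 differentiated. The undifferentiated and aggregated levels overlapped and the differentiated levels lay above both. The course difference was 0.95 ± 0.23 (limma adjusted p = 0.0264), that on aggregation -0.15 ± 0.23 (0.606; -0.46 to 0.17 over the settings), and a second probe gave 0.97 and -0.15. Sc5d, the desaturase before it, had 0.71 ± 0.17 over the course (0.0261) and 0.09 ± 0.17 on aggregation (0.664; -0.049 to 0.27 over the settings). The course call of Dhcr7 ended without any 1 array except the vector undifferentiated, and that of Sc5d without any of the 6.

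Of the others in this arm, Msmo1, the sterol methyl oxidase, rose over the course by 1.73 ± 0.19 (limma adjusted p = 0.0076), the squalene epoxidase Sqle by 1.46 ± 0.15 (0.0073) and the decarboxylating dehydrogenase Nsdhl by 1.33 ± 0.16 (0.008). Hsd17b7, the sterol ketone reductase, rose by 1.27 ± 0.16 (0.0081) and Lss, the lanosterol synthase, by 1.16 ± 0.23 (0.0174). Ebp, the sterol isomerase, had 0.41 ± 0.20 and did not pass (0.145). On aggregation alone Tm7sf2, Msmo1, Lss and Cyp51 passed, and Sqle, at 0.53 ± 0.15, missed the threshold (limma adjusted p = 0.0504).

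Of the 3 genes that control the pathway, Srebf2 and Insig1 rose and Srebf1 did not pass. Srebf2 had levels of 1.54 (vector) and 1.43 (AICD) undifferentiated, 2.27 in both lines aggregated, and 2.45 and 2.63 differentiated, a difference of 1.06 ± 0.16 over the course (limma adjusted p = 0.0103). A second, dimmer probe of Srebf2 gave 0.42 over the course and -0.11 on aggregation, where the first gave 0.78. Insig1, itself an SREBP target, had -1.68 and -1.93, then -0.71 and -1.01, then -0.18 and -0.08. Its difference was 1.68 ± 0.18 over the course (limma adjusted p = 0.0075) and 0.94 ± 0.18 on aggregation (0.0252). The states of Insig1 did not overlap, and its second probe gave 1.23 and 1.08. Srebf1 had a course difference of 0.19 ± 0.17 (limma adjusted p = 0.376). It ran from 0.040 to 0.77 over 14 settings and passed in 1 of them, quantile normalization.

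The 8 genes of fatty acid synthesis and desaturation did not move as 1 group. Over the course 4 rose (20.1% of all genes) and none fell (41.3%), and the median difference was 0.55. On aggregation 3 rose (14.3% of all genes) and 1 fell (27.9%). The desaturases of polyunsaturated fatty acids were among those that rose. Fads2 had levels of 1.36 (vector) and 0.96 (AICD) undifferentiated, 2.94 and 2.46 aggregated, and 3.29 and 2.83 differentiated, and its course difference was 1.90 ± 0.14 (limma adjusted p = 0.0061). Fads1, the delta-5 desaturase, had 1.42 ± 0.15 (0.0073), and most of it, 1.17 ± 0.15, was present on aggregation (0.0143). The undifferentiated levels of Fads2 lay below all others, and its aggregated and differentiated levels overlapped between the lines.

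Of the stearoyl-CoA desaturases, Scd2 rose and Scd1 did not pass. Scd2, the form common in embryo and brain, had a difference of 0.84 ± 0.15 over the course (limma adjusted p = 0.0134) and 0.82 ± 0.15 on aggregation (0.0232). Scd1, the form of liver and fat, had levels of 3.12 (vector) and 2.53 (AICD) undifferentiated, 2.04 and 1.66 aggregated, and 2.14 and 2.64 differentiated. Its differences of -0.98 ± 0.32 on aggregation (limma adjusted p = 0.0733) and -0.43 ± 0.32 over the course (0.294) did not pass, and the latter was 0.056 without the vector differentiated array. The difference between Scd1 and Scd2 was not tested.

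Among the enzymes that build the chain, Acly, which makes cytosolic acetyl-CoA from citrate, rose over the course by 0.96 ± 0.15 (limma adjusted p = 0.0102). Acaca, the acetyl-CoA carboxylase, had levels of -0.25 (vector) and -0.23 (AICD) undifferentiated, 0.11 and 0.03 aggregated, and 0.10 and -0.05 differentiated. Its course difference was 0.26 ± 0.15 (limma adjusted p = 0.190), and its other 3 probes ran from -0.38 to 0.62. On aggregation these gave -0.26, 0.14 and -0.02 where the first gave 0.31, and from aggregated to differentiated -0.13, 0.48 and 0.37 against -0.04. Fasn, the fatty acid synthase, had 7.41 and 7.04 undifferentiated, 6.94 and 6.82 aggregated, and 6.83 and 6.90 differentiated, a course difference of -0.36 ± 0.18 (0.151). The direction for Fasn was not stable: a second probe gave 0.55 (and 0.38 on aggregation, against -0.34), the mean of the probes 0.10 and quantile normalization 0.64 (limma adjusted p = 0.0245).

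Elovl6, which lengthens palmitate to stearate, was the 1 member that fell on aggregation, where 27.9% of all genes did. Its levels were 3.94 (vector) and 3.69 (AICD) undifferentiated, 2.77 and 2.94 aggregated, and 3.48 and 4.11 differentiated. The aggregated levels lay below the others, with a difference of -0.96 ± 0.26 (limma adjusted p = 0.0496). This call ended with normexp correction (0.0615), with quantile normalization (0.119), with no filter (0.0679), with median centring (0.0527), and without the vector undifferentiated array (0.184), either aggregated array (0.202 and 0.210) or either differentiated array (0.0521).

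Of the sterol carriers, Gramd1a rose over the course by 1.82 ± 0.28 (limma adjusted p = 0.0107) in addition to its line difference. Stard4, which moves cholesterol through the cytosol, rose by 1.0 ± 0.17 (0.0129) by its brightest probe, while its other 2 probes gave -0.08 and -0.09 (and -0.30 and -0.25 from aggregated to differentiated, against 0.27), and the call ended with the mean of the probes and without any 1 undifferentiated or differentiated array. Both droplet coat genes fell over the course, where 41.3% of all genes did. Plin2 fell by 1.33 ± 0.20 on the log2 scale (limma adjusted p = 0.0104), and in single lines dropped by 1.04 (vector) and 1.61 (AICD). Plin3 fell by 2.02 ± 0.53 (0.033), by 3.04 in the vector and 1.01 in the AICD line. The Plin3 call ended with quantile normalization (0.0679), with no filter (0.0511), and without the vector undifferentiated (0.0892), either aggregated (0.0711) or the vector differentiated array (0.127).

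On aggregation alone 12 members rose, where 14.3% of all genes did, and Elovl6 fell. The risers were Hmgcs1, Fdft1, Lss, Cyp51, Tm7sf2, Msmo1, Srebf2, Insig1, Scd2, Fads1, Fads2 and Stard4, and the median difference of the 32 was 0.51 against -0.31 over all genes. Over the whole array the share of calls that were rises was 33.9%, and 44.4% with quantile normalization, which called 16 members higher and Plin2 lower. Without either aggregated array 0 members and 0 genes were called, and without the vector or AICD undifferentiated array 3 and 7 members were called.

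The step from aggregated to differentiated lies within 1 slide. In limma 0 members and 0 of all genes passed, while at an unadjusted p under 0.05 there were 16 members higher (14.8% of all genes) and Plin2 lower (17.7% of all genes). The median fitted difference was 0.54 over the 32, 0.79 over the 17 sterol enzymes and -0.08 over all genes. With normexp correction 8 members passed (Cyp51, Dhcr7, Fdft1, Hmgcs1, Hsd17b7, Nsdhl, Sqle and Tm7sf2), with a variance trend 7 of these without Hsd17b7, and among genes above background on all 6 arrays 4 (Cyp51, Nsdhl, Sqle and Tm7sf2). Tm7sf2 had a difference of 1.12 ± 0.16 (limma adjusted p = 0.0696), Dhcr7 1.1 ± 0.23 (0.080), Cyp51 0.99 ± 0.17 (0.075) and Gramd1a 1.13 ± 0.28 (0.0954).

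The steps were also read in each line alone, without a test. Of the 17 sterol enzymes, 15 were higher differentiated than aggregated in both lines, where 34.7% of all genes were, and Mvd and Ebp went opposite ways. From undifferentiated to differentiated 16 were higher in both lines, where 31.6% of all genes were, and Pmvk went opposite ways. A level that was higher at each later state in both lines was seen in 18 of 32 members, 56.2%, and in 14.2% of all genes. Among these 18 were 11 of the 17 sterol enzymes.

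At 2-fold or more from undifferentiated to differentiated, 13 members were higher in the vector line (17.4% of all genes) and 19 in the AICD line (13.2%). The lower members were Plin2 and Plin3 in each line, beside 33.3% and 24.7% of all genes. On aggregation 6 members were higher (11.8%) and 4 lower (22.1%) in the vector line, and 8 higher (10.8%) and 0 lower (17.2%) in the AICD line. From aggregated to differentiated 4 (11.1%) and 5 (6.69%) were higher and 0 lower (11.3% and 4.50%) in the vector and AICD lines, with Tm7sf2 and Dhcr7 in both counts. Whether the lines differ in their response was not tested, since 1 array per line and state leaves no error for it.

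**Figure D5:**
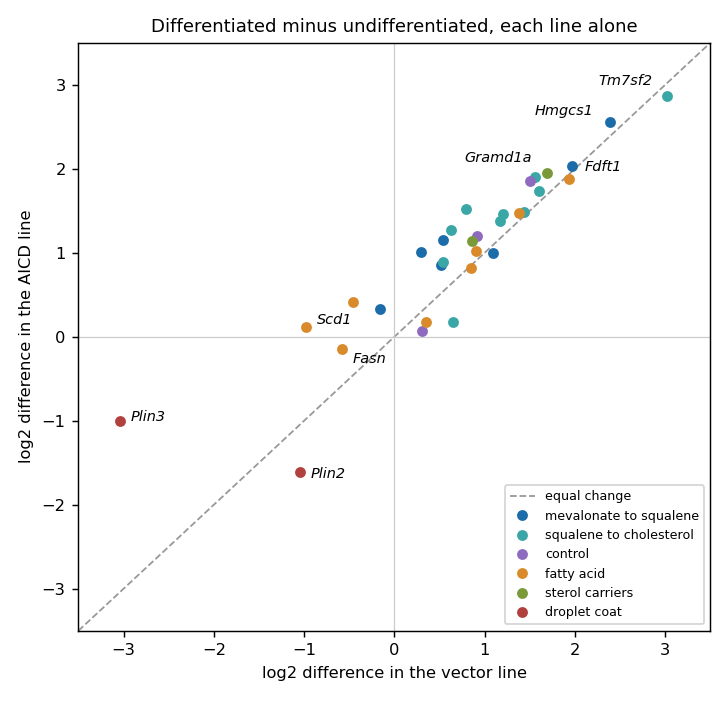
Log2 difference from the undifferentiated to the differentiated array in the vector line (horizontal axis) against the AICD line (vertical axis), 1 point per member coloured by role, with a dashed line of equal change. Tm7sf2 lies at 3.02 and 2.87, Hmgcs1 at 2.39 and 2.56, and Plin3 at -3.04 and -1.01.

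Further genes of sterol handling were read from lists of other lipid genes, 75 tested in all. Between the lines 0 of the 75 differed in limma, near the shares of all genes (0.209% higher and 0.142% lower). Of 21 other genes of sterol synthesis and its control, 4 rose and 3 fell over the course, with a median of -0.13, where 20.1% of all genes rose and 41.3% fell. Aacs, which feeds ketone bodies into sterol synthesis, rose by 1.92 ± 0.17 (limma adjusted p = 0.007) and Scap, the escort of SREBP, by 0.98 ± 0.15 (0.0101). Gramd1b, a relative of Gramd1a, fell by 1.32 ± 0.28 (0.0208), and its line difference was 0.64 (limma adjusted p = 0.399).

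Of 8 genes of sterol efflux and oxysterols, Abca1, the cholesterol exporter, rose by 3.19 ± 0.59 (limma adjusted p = 0.0144) and Apoe, the lipoprotein of brain, fell by 2.11 ± 0.27 (0.0085). In 17 other genes of fatty acid synthesis and activation, 4 rose and 7 fell, shares near those of all genes. Fabp7, the fatty acid binding protein of radial glia, rose by 7.50 ± 0.35 (limma adjusted p = 0.0049) and Elovl2, which lengthens polyunsaturated fatty acids, by 2.87 ± 0.15 (0.0049). Acacb, the mitochondrial acetyl-CoA carboxylase, fell by 3.84 ± 0.51 (0.0088) and Me1, the cytosolic malic enzyme that makes NADPH, by 1.84 ± 0.18 (0.0072).

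Of 17 genes of triglyceride synthesis and droplets, 5 rose and 9 fell over the course, where 20.1% of all genes rose and 41.3% fell. The median of the 17 was -0.67. Agpat2, an acyltransferase of triglyceride synthesis, fell by 3.01 ± 0.24 (limma adjusted p = 0.0062) and the perilipin Plin5 by 3.75 ± 0.71 (0.0153), whereas Lpin1, a phosphatidate phosphatase, rose by 1.40 ± 0.21 (0.0101). Of 12 genes of fatty acid oxidation and PPAR targets, 3 rose and 5 fell, again near the shares of all genes, with a median of -0.55. The medians of these lists lay on either side of that of all genes, -0.44, and below that of the 17 sterol enzymes.

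Between the lines, 10 of 17 triglyceride and droplet genes (median 0.06) and 2 of 8 efflux genes (median -0.16) had a positive fitted difference. Of all 13381 genes tested 6733 had one. None of the listed genes passed, where 0.209% of all genes were called higher and 0.142% lower. The examples here are those with the largest differences. Hilpda, a droplet protein that inhibits lipolysis, was 0.80 higher in the AICD line undifferentiated, 0.97 aggregated and 1.05 differentiated (limma adjusted p = 0.107). Cidea, a droplet fusion protein, was 1.49 higher undifferentiated and 4.27 aggregated, and its differentiated vector array did not reach the background limit (limma adjusted p = 0.196). Bscl2, the seipin of droplet formation, had a fitted difference of -0.76 and the lipase Mgll, well above background on 3 arrays, one of -0.64. Among the efflux genes Apoe had 1.12 ± 0.22 (limma adjusted p = 0.191), the oxysterol hydroxylase Cyp7b1 0.95, Ch25h, the cholesterol 25-hydroxylase, -0.77 and Abca1 -0.74.

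In the authors' deposited table, values are listed for 32 of the 192 pairs of member and array, and 19 members have none. Listed values under 1 were read as minus their reciprocal, a reading under which all 32 lie within 0.1 of the log2 level used here minus the probe's median over the arrays. Read so, the authors' deposited table puts Plin2 at -1.93, -2.54 and -2.95 on the vector arrays and 3.53, 2.74 and 1.93 on the AICD arrays, in the order undifferentiated, aggregated, differentiated. It separates the lines for Plin2 as the levels above do.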

How the data were processed

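Agilent Feature Extraction 10.1.1.1 produced the scanner files, per the submitters' processing notes. The intensity used is the deposited processed signal, background-subtracted and not scaled between arrays per the file headers. The authors also deposited a score per probe. It was decoded from the values and used for no test.

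Of 41174 probes 24844 received a symbol through RefSeq accessions, 17178 genes. Outlier-flagged and control spots were left out, repeated spots averaged, and log2 signals scaled to each array's 75th percentile. A probe had to be well above background on at least 2 of 6 arrays, and the brightest probe stood for a gene (14 members have several), which left 28459 probes and 13381 genes.

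The model state + line was fitted in limma 3.58.1 (R 4.3.3, data.table, version 1.17.8) with eBayes (2 residual degrees of freedom, prior 2.05). It was also run on simulated data with planted differences and equal noise in every gene. That run checks the code and not the spread of genes on these arrays. Figures and tables used Python 3.11.15 with pandas 2.3.3, numpy 2.4.6 and matplotlib 3.10.9. Single arrays were compared without a test, in genes well above background on both. Values on every array are given for members called between the lines, for the 4 largest steps per direction and for the SREBP regulators, and those of a second probe where it differs in sign or by over 1. Alternatives were normexp correction (offset 50), quantile normalization, other filters, the mean of a gene's probes, a variance trend, no state term, the larger slide, each array left out, and median centring (chosen after seeing the data). The normexp alternative used median spot signals, since mean signals were not analysed here. The members and lists were chosen with earlier results of these data known. The number of arrays limits the precision. Some genes of the other lipid lists are not reported here by name.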

Additional observations from a re-analysis of the deposited data

Results flagged for a closer look

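Plin3 had a line difference (AICD minus vector) of -0.54 on the undifferentiated arrays and 1.5 on the differentiated arrays (log2), opposite in sign and each over 0.5 in size. With 1 array per line and state, the difference between the states was not tested.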

How the results depend on the processing

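The count of members that differed between the lines, 2, was 0 with no filter on dim probes, 1 without the state term and 0 to 2 when each array was left out in turn. The count on aggregation, 13, ran from 0 to 10 with an array left out, and the count over the course, 24, from 6 to 19. From aggregated to differentiated the count of 0 became 8 with normexp correction, 4 with genes above background on all 6 arrays and 7 with a variance trend. With quantile normalization, members at least 2-fold apart in that step numbered 8 in the vector line (4 before) and 9 in the AICD line (5 before). Over all members, the direction turned in at least 1 setting for 13 between the lines, 5 on aggregation, 9 from aggregated to differentiated and 4 over the course. None of these differences was called with the processing used above, and only that of Fasn over the course passed when turned, with quantile normalization. Among the members followed through every setting these were: Plin3 between the lines to -0.0098 without either differentiated array (range with an array left out -0.0098 to 1.01); from aggregated to differentiated, Mvd to 0.022 with quantile normalization and 0.22 without the vector differentiated array (range -0.34 to 0.22), Acaca to 0.17 with the mean of its probes and 0.016 without the AICD differentiated array (range -0.10 to 0.016), and Plin3 to 0.26 without the vector differentiated array (range -1.25 to 0.26); over the course, Fasn to 0.64 with quantile normalization and 0.10 with the mean of its probes, and Scd1 to 0.056 without the vector differentiated array (range -0.92 to 0.056). The cause was not tested; with an array left out, 1 residual degree of freedom remains and the lone array is assumed to vary like the others. The state term pairs the lines within each state, and 1 array per line and state leaves no other pairing.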
